A study of Mus musculus with 5 samples.

Results

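Macrophages in a tumor can divide in place, and their dividing share is often read from transcripts that are made mainly during part of the cell cycle. The account below covers 44 cell cycle genes in mouse tumor macrophages. Of these, 15 act in or before DNA replication (S phase) and 29 were counted as mitotic, some of which span phases. The members were chosen by name: each row of the authors' deposited Cuffdiff table whose gene column holds a member's symbol was taken, and all 44 were found among 24982 rows. S-phase members are the Mcm, Rrm, Ccne, Pcna, Tyms, Tk1, Cdc6 and E2f1 genes, and the other members were counted as mitotic.

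The series holds 5 RNA-seq libraries of macrophages taken from tumors of the 9609 line, a mouse MCA fibrosarcoma. In the MEK1-low group (2 libraries) the labels give the line and genotype as MEK1-low and the treatment as MEK1-low (GFP) exosomes, which are small vesicles shed by cells. In the MEK1-hi group (3 libraries) they give MEK1-hi for line, genotype and exosomes alike. MEK1 is the kinase upstream of ERK, a pathway that drives many cells into division. Mouse strain, age, the way macrophages were isolated and whether libraries came from separate animals were not stated in the labels. The spread between libraries that enters the authors' p-values may therefore be technical only. The authors' deposited table gives 1 pooled FPKM per group (fragments per kilobase of transcript, scaled to sequencing depth), so no value per library and no SD can be shown. Every log2 fold change below is MEK1-hi over MEK1-low, computed from these FPKM values, and a negative value means less in MEK1-hi.

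Before S phase, the transcription factor E2F1 and cyclin E switch on the genes for replication. The MCM helicase is loaded on origins, PCNA clamps the polymerases to DNA, and ribonucleotide reductase, thymidylate synthase and thymidine kinase supply deoxynucleotides. Later, FOXM1 and MYBL2 switch on the mitotic genes, cyclin B with CDK1 starts mitosis, the kinetochore and spindle align the chromosomes, and CDC20 and UBE2C let the anaphase-promoting complex end it. Differentiated macrophages mostly rest outside the cycle, while tissue macrophages and newly arrived monocyte-derived cells in tumors can still divide.

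Transcripts of replication and of mitosis were both present, and none of the 44 genes passed the authors' test. With Cuffdiff at a q-value of 0.05, 0 of 44 members were called, beside 1.32% of the 12311 rows tested (0.325% lower and 0.999% higher). At an unadjusted p of 0.05, 1 member was lower (Mki67, p = 0.0464 by the authors' deposited table) and 0 were higher, beside 2.58% of tested rows lower and 3.5% higher. Below 0 on the log2 scale lay 42 of the 44, beside 53.8% of tested rows. The differences were small. They ran from -0.50 (Mybl2) to 0.01 (Tk1) with a median of -0.24, beside a median of -0.02 over tested rows. Among rows with a mean FPKM within that of the members, 54.3% lay below 0 and the median was -0.02 too. The smallest difference that Cuffdiff called anywhere in the table was 0.82 on the log2 scale, and of 10679 rows that differed no more than Mybl2 did, 0 were called and 27 had an unadjusted p under 0.05. No row with a difference as small as those of the members was therefore called.

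**Figure D1:**
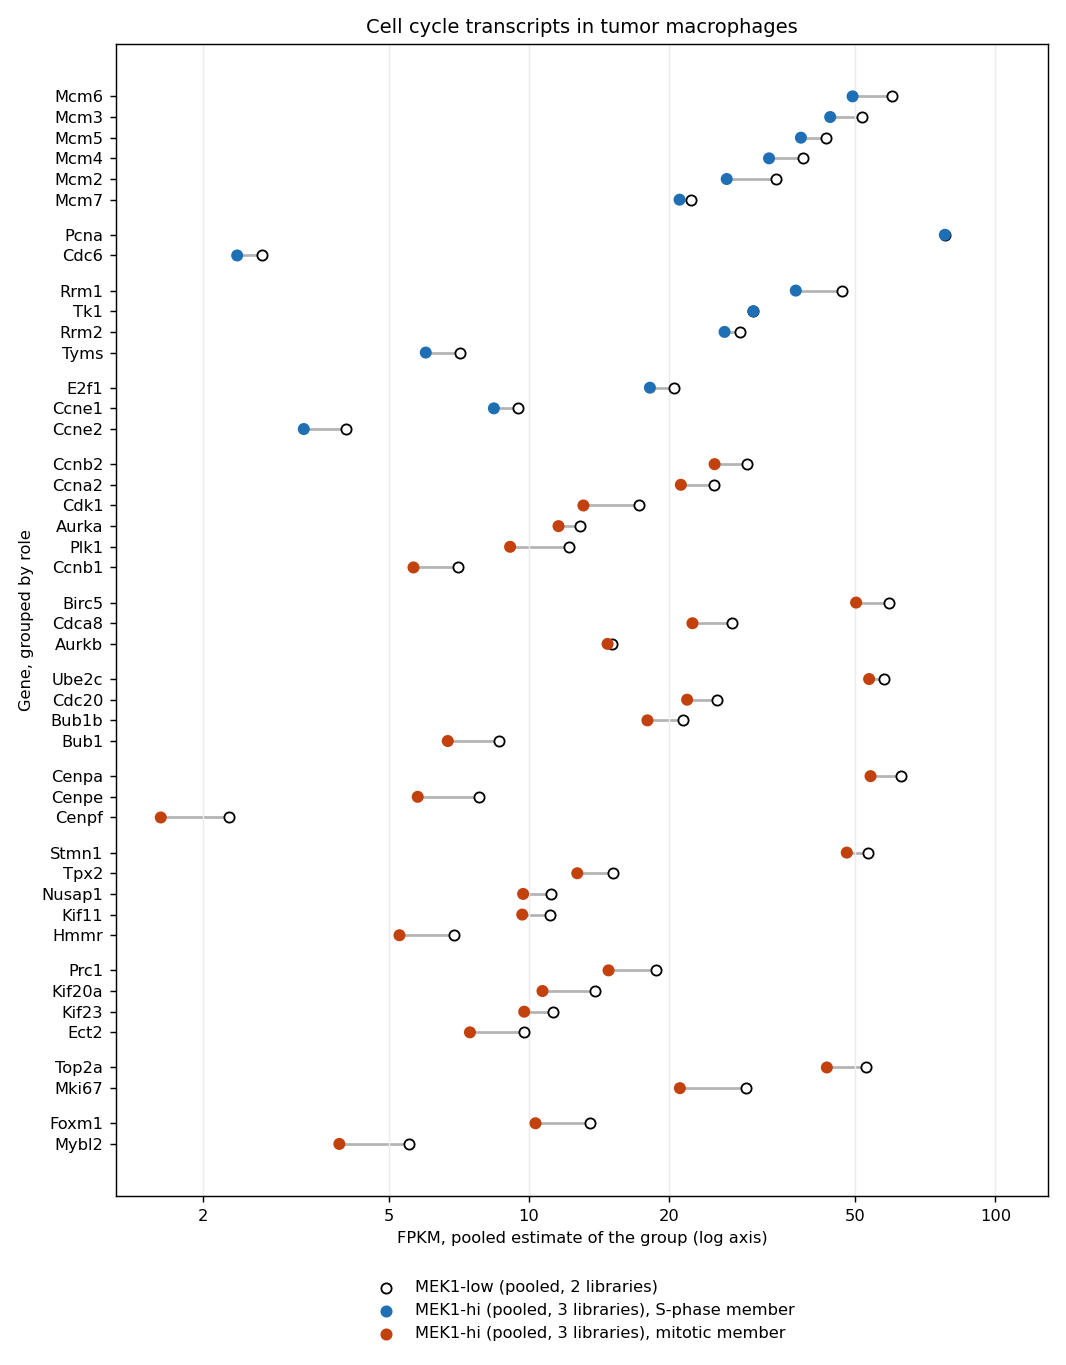
Deposited FPKM of the 44 members on a log axis, open circles for MEK1-low and filled circles for MEK1-hi (blue for S-phase, orange for mitotic members), each a pooled estimate with no error bar. The filled circle lies left of the open circle in 42 rows, and the pairs for Pcna and Tk1 coincide.

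Control of these genes is read partly from their promoters. Windows from 250 bases before to 50 after the transcription start were taken from RefSeq (GRCm38.p6, the same coordinates as mm10) for 36 of the 44 members. Both strands were searched for 3 motifs. The cell cycle homology region, written TTTGAA or TTCGAA, and the CCAAT box, written CCAAT, are known from promoters of mitotic genes. An E2F-type motif, written TTTNNCGC, is known from promoters of replication genes. The homology region was in the windows of 18 of 23 mitotic members (78.3%) and 2 of 13 S-phase members (15.4%), beside 19.2% of all 32851 windows. The CCAAT box was in 20 of 23 (87.0%) and 8 of 13 (61.5%), beside 37.4% of all windows. The E2F-type motif showed the opposite split, with 1 of 23 mitotic members (4.35%) and 6 of 13 S-phase members (46.2%), beside 5.17%. A gene with more than 1 window was counted once, if any window held the motif. Among windows at least as rich in G and C as the poorest member window, the shares were 13.6%, 35.9% and 6.38%. These matches are letters in a window, not shown to be bound sites.

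The next windows are printed 5′ to 3′ on the gene's strand, with all matches of the 3 motifs in capitals on either strand. For the mitotic genes they are Mki67, the member with the smallest p (chr7:135716330-135716629, minus strand), Cdk1, the mitotic kinase, the mitotic member whose window also holds the E2F-type motif (chr10:69352863-69353162, minus strand), and Ube2c, which lay near 0 and holds the homology region (chr2:164769679-164769978, plus strand).
Mki67: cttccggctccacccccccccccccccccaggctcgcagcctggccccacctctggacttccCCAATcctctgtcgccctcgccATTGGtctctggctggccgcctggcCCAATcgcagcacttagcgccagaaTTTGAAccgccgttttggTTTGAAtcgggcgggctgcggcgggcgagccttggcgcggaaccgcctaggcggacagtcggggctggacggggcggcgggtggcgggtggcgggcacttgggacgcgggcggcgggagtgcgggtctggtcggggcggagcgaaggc
Cdk1: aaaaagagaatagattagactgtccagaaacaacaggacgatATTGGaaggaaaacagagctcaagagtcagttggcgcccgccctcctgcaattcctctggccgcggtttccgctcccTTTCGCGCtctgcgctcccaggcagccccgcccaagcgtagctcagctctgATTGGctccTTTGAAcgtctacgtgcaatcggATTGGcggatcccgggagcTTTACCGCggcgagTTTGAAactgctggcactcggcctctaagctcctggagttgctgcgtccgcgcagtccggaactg
Ube2c: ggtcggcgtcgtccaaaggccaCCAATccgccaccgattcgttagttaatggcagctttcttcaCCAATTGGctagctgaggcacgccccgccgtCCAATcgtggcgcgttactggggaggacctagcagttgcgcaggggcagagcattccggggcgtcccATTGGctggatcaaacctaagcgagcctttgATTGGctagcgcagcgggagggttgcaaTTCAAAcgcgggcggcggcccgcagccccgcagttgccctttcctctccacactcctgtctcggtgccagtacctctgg
In Mki67 the capitals mark 2 copies of TTTGAA at bases 135 and 153 of the window and 3 CCAAT boxes. In Ube2c a CCAAT box at base 65 overlaps another on the opposite strand at base 68.

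For the S-phase genes the windows are Mcm2, the lowest S-phase member (chr6:88898731-88899030, minus strand), Mcm6, with the most E2F-type matches (chr1:128359656-128359955, minus strand), and Pcna, the most abundant member (chr2:132253131-132253430, minus strand).
Mcm2: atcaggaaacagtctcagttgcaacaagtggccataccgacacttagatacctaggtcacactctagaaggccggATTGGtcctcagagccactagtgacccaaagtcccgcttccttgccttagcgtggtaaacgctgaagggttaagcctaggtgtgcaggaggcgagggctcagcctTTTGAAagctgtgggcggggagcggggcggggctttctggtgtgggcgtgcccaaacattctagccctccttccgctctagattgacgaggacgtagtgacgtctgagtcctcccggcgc
Mcm6: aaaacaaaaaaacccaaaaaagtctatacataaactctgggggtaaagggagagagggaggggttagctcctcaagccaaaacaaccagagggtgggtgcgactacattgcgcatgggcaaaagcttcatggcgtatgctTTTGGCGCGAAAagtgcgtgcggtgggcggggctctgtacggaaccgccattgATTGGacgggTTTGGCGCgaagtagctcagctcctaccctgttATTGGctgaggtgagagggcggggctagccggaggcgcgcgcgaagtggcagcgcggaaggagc
Pcna: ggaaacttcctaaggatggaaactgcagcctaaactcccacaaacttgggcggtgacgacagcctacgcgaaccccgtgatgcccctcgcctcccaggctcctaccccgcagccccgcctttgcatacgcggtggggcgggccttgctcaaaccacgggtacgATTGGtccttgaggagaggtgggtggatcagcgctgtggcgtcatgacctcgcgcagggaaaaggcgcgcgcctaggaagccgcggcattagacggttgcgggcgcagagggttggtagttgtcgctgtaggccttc
Mcm6 holds 3 E2F-type matches, of which those at bases 141 and 145 overlap on opposite strands. The Mcm2 window holds TTTGAA at base 181, which is the mitotic type of motif, and the Pcna window holds 1 CCAAT box and no match to the other motifs. Within the mitotic members, the 18 genes with the homology region had a median log2 fold change of -0.28 and the 5 without it -0.31. For the CCAAT box the order was the other way, with -0.30 in the 20 mitotic genes that hold it and -0.24 in the 3 that do not. Over all 36 members, the medians with and without the homology region were -0.28 and -0.21, and those with and without the CCAAT box -0.28 and -0.19. Mitotic genes made up 18 of the 20 members with the homology region and 5 of the 16 without it. For the CCAAT box they made up 20 of 28 and 3 of 8. These pooled medians therefore cannot be told apart from the difference between mitotic and S-phase members.

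The MCM helicase unwinds DNA at replication forks as a ring of its MCM2 to MCM7 subunits, and all 6 subunit genes lay below 0. Mcm6 had 59.9 FPKM in the MEK1-low and 49.4 in the MEK1-hi group, the highest of the 6 in both groups of the authors' deposited table. Mcm3 had 51.7 and 44.2, Mcm5 43.3 and 38.3, and Mcm4 38.6 and 32.7 FPKM there. Mcm2 showed the largest difference of an S-phase member (-0.35), from 33.9 to 26.5 FPKM (p = 0.135, q = 0.9998 by the authors' deposited table). Mcm7, the least abundant subunit, showed the smallest, with 22.26 and 21.03 FPKM by the authors' deposited table (-0.08). The order of the 6 genes by level was the same in both groups, and the highest exceeded the lowest 2.69-fold in MEK1-low and 2.35-fold in MEK1-hi. Together they summed to 249.7 and 212.2 FPKM, with a median of -0.23.

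Pcna and Tk1, the S-phase genes for the sliding clamp and for thymidine kinase, were level between the groups. Pcna, the most abundant of the 44, had 77.88 FPKM in the MEK1-low and 77.95 in the MEK1-hi group (log2 0.00, p = 0.996 by the authors' deposited table). Tk1 had 30.2 and 30.3 FPKM (0.01, p = 0.985 by the authors' deposited table). These were the 2 members that did not lie below 0, and scaling both groups to the same FPKM sum, which lowers every value by 0.10, put them at -0.10 and -0.09. Centring on the median of tested rows moves every value the other way, and 42 of the 44 members then lay below 0. Cdc6, which loads the helicase on origins, was scarce, with 2.67 and 2.37 FPKM by the authors' deposited table (-0.17).

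The other nucleotide genes lay below 0. Rrm1, the large subunit of ribonucleotide reductase, had 46.8 and 37.3 FPKM by the authors' deposited table (-0.33, p = 0.162). Rrm2, its small subunit and the one made mainly in S phase, had 28.3 and 26.3 FPKM there (-0.11). The level of Rrm1 was 1.65 times that of Rrm2 in MEK1-low and 1.42 times in MEK1-hi. Tyms, which makes thymidylate, had 7.125 and 6.004 FPKM by the authors' deposited table (-0.25). Of the genes that govern entry into S phase, E2f1 had 20.5 and 18.2 FPKM (-0.17), Ccne1 9.47 and 8.41 (-0.17), and Ccne2 4.05 and 3.29 (-0.30), as the authors' deposited table gives them.

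Mitotic entry is driven by CDK1 with cyclins A and B and by the kinases PLK1 and AURKA. Plk1 showed the largest difference of these 6 genes, with 12.2 FPKM in the MEK1-low and 9.11 in the MEK1-hi group (-0.42, p = 0.146 by the authors' deposited table). Cdk1 had 17.2 and 13.1 FPKM (-0.39, p = 0.106 by the authors' deposited table). The B cyclins kept their order, with Ccnb2 at 29.3 and 25.0 FPKM (-0.23) and Ccnb1 at 7.03 and 5.65 (-0.31) by the authors' deposited table. Their ratio was 4.16 in the MEK1-low and 4.42 in the MEK1-hi group. Ccna2, active in S phase as well as in mitosis, had 24.9 and 21.2 FPKM (-0.24), and Aurka, the centrosome kinase, 12.9 and 11.6 (-0.15) by the authors' deposited table.

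The chromosomal passenger complex corrects faulty attachments of chromosomes. Its kinase gene Aurkb was the mitotic member nearest 0, with 15.0 and 14.7 FPKM (-0.03, p = 0.918 by the authors' deposited table). Its partners Birc5 (survivin) and Cdca8 (borealin) had 59.2 and 50.3 FPKM (-0.24) and 27.2 and 22.4 FPKM (-0.28) by the authors' deposited table. These 3 members thus ranged from -0.28 to -0.03.

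Genes of the spindle checkpoint, which holds cells in metaphase, and of the machinery that ends it all lay below 0. The checkpoint kinase genes Bub1 and Bub1b had 8.62 and 6.69 FPKM (-0.37) and 21.4 and 17.9 FPKM (-0.25) by the authors' deposited table. Cdc20, the activator of the anaphase-promoting complex, had 25.2 and 21.8 FPKM (-0.21), and Ube2c, its ubiquitin-conjugating enzyme, 57.6 and 53.6 FPKM (-0.10) by the authors' deposited table.

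Among the members at the centromere, the abundant histone gene Cenpa differed less than the large kinetochore genes Cenpe and Cenpf. Cenpa, the centromeric histone H3 variant, had 62.6 and 54.0 FPKM by the authors' deposited table (-0.21). Cenpe, a kinetochore motor, had 7.83 and 5.77 FPKM (-0.44, p = 0.0772, q = 0.952 by the authors' deposited table). Cenpf, which builds up from late S phase to mitosis, was the scarcest of the 44, with 2.27 and 1.62 FPKM (-0.49, p = 0.0916 by the authors' deposited table). Cenpe, Cenpf and Mki67 were the 3 members with an unadjusted p under 0.1, beside 9.65% of tested rows.

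Spindle genes lay between -0.39 and -0.15. Hmmr, a spindle assembly factor, had 6.89 and 5.27 FPKM (-0.39), Tpx2, which activates AURKA on the spindle, 15.2 and 12.7 (-0.26), and Nusap1, a microtubule bundler, 11.2 and 9.71 (-0.20) by the authors' deposited table. The motor gene Kif11 had 11.1 and 9.67 FPKM (-0.20), and Stmn1, a tubulin-binding protein, 53.4 and 48.0 (-0.15) by the authors' deposited table.

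Genes of cytokinesis, the final split of the cell, had a median of -0.36. Ect2, which activates RhoA at the division plane, had 9.74 and 7.47 FPKM by the authors' deposited table (-0.38). Kif20a, a kinesin of the midzone, had 13.8 and 10.7 (-0.37) and Prc1, which bundles the midzone of the spindle, 18.8 and 14.8 (-0.34), while the midzone motor gene Kif23 had 11.3 and 9.76 (-0.21), all by the authors' deposited table.

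Mki67, the gene of the Ki-67 protein that coats mitotic chromosomes and is widely used to mark dividing cells, had 29.3 FPKM in the MEK1-low and 21.1 in the MEK1-hi group (-0.47, q = 0.794 by the authors' deposited table). Top2a, which untangles sister chromosomes, had 52.9 and 43.5 FPKM (-0.28, p = 0.25 by the authors' deposited table). The transcription factor genes Mybl2 and Foxm1 had 5.54 and 3.92 FPKM (-0.50) and 13.5 and 10.3 FPKM (-0.39), with p = 0.102 and p = 0.114 by the authors' deposited table. The Foxm1 row is shared with Tex52 in that table, so its reads may come from either gene.

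**Figure D2:**
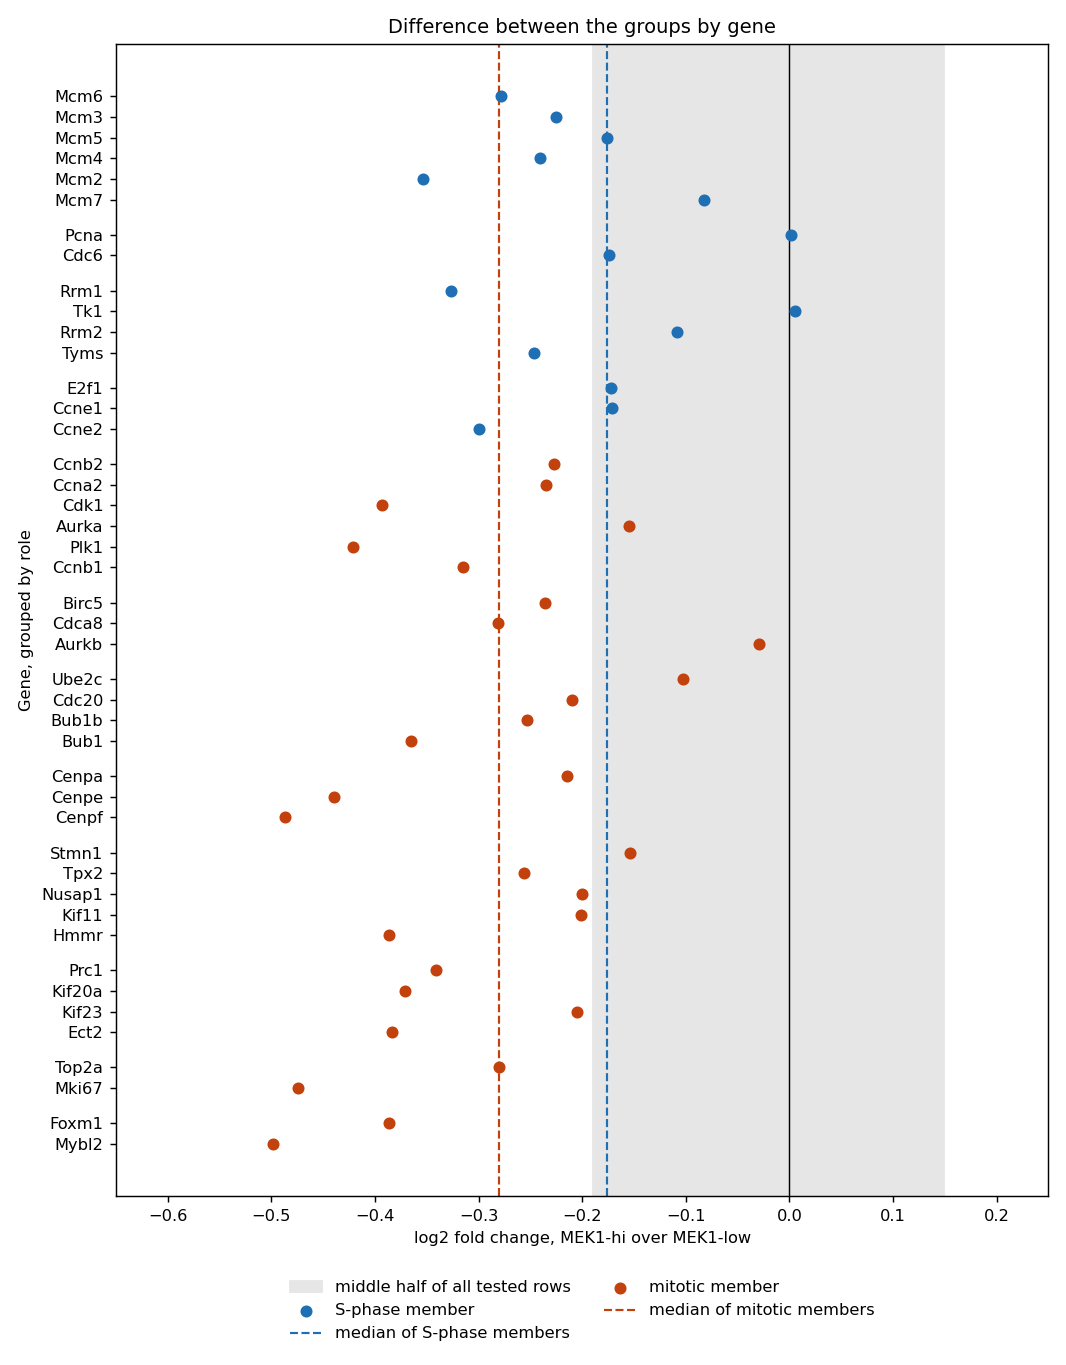
Log2 fold change (MEK1-hi over MEK1-low) of each member, by role, with dashed lines at the medians of S-phase (-0.18) and mitotic (-0.28) members and a grey band from the lower to the upper quartile of tested rows (-0.19 to 0.15). The mitotic points extend further left, and the sets overlap over most of their range.

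Set side by side, the mitotic genes lay somewhat lower than the S-phase genes, with wide overlap. The median was -0.28 over 29 mitotic members (range -0.50 to -0.03, all 29 below 0) and -0.18 over 15 S-phase members (range -0.35 to 0.01, 13 below 0). Scaling to equal FPKM sums put the S-phase median at -0.27, with all 15 below 0, and the mitotic median at -0.38. Centring on the median of tested rows put the S-phase median at -0.15 and the mitotic median at -0.26. Either step shifts every value alike, so the difference between the medians stayed at -0.10. Of the mitotic members, 11 lay below Mcm2, the lowest S-phase gene, and 18 lay within the S-phase range. The 10 lowest members were all mitotic, and of the 10 highest 6 were S-phase genes. Below -0.3 lay 13 mitotic and 2 S-phase members, beside 15.4% of tested rows. Summed FPKM gave the same order, from 643.0 to 541.4 for mitotic (ratio 0.842) and from 476.6 to 422.3 for S-phase members (ratio 0.886). The mitotic share of the members' summed FPKM was 57.4% with MEK1-low and 56.2% with MEK1-hi. Genes are not replicates and the table holds no values per library, so the difference between the sets was not tested. It shrank to -0.06 when 9 genes that span phases or act before S phase (Ccna2, Mki67, Top2a, Stmn1, Mybl2, Foxm1, E2f1, Ccne1 and Ccne2) were left out.

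Level was unequal between the sets. Mitotic members had a median mean FPKM of 13.9 and S-phase members of 30.2. Across the 44 genes, which share the same libraries, log2 fold change and mean FPKM had a Spearman's rho of 0.40 (0.48 within mitotic and -0.06 within S-phase members), given as a description. Between 20 and 80 FPKM the medians were -0.23 for 10 mitotic and -0.20 for 10 S-phase members, beside 0.02 for 2830 tested rows. Between 5 and 20 FPKM they were -0.34 for 17 mitotic and -0.17 for 3 S-phase members, beside -0.03 for 4401 tested rows. Under 5 FPKM they were -0.49 for 2 mitotic and -0.24 for 2 S-phase members, beside -0.10 for 4100 tested rows. The sets were thus close at the higher levels and further apart at the lower ones, where few S-phase members lay. The part of level in the difference was not tested.

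**Figure D3:**
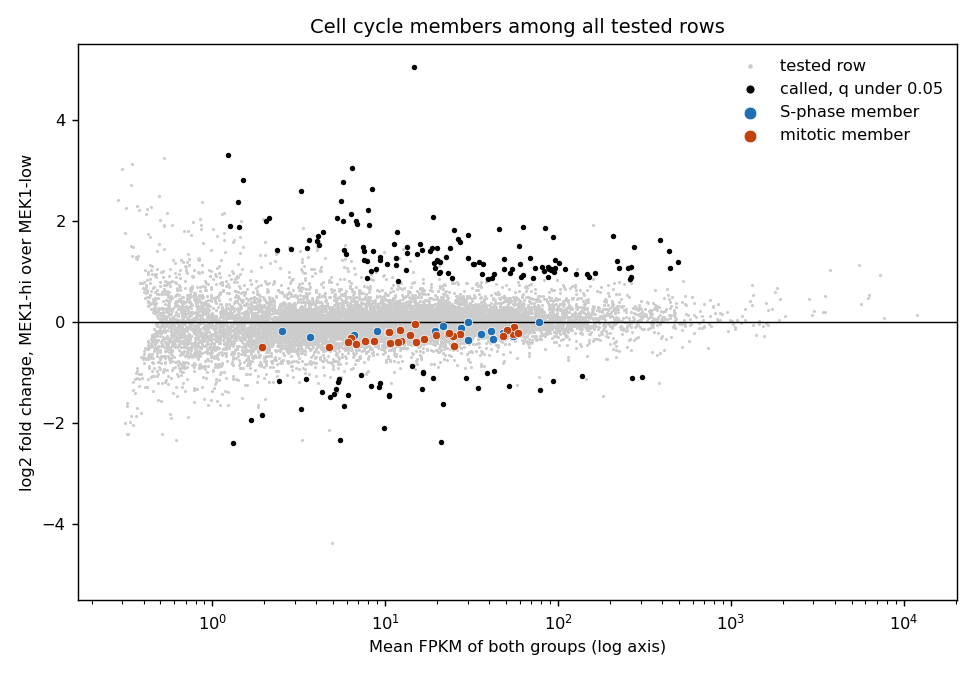
Log2 fold change against mean FPKM (log axis) for 12306 tested rows (grey; 5 rows at 0 in 1 group are not drawn), rows called by Cuffdiff at a q-value of 0.05 (black), and S-phase (blue) and mitotic (orange) members. The members form a narrow band just below 0, inside the cloud of uncalled rows.

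Other genes of the cycle were listed by role. Of these 156 genes, Cuffdiff called 0, beside 1.32% of tested rows. At an unadjusted p of 0.05, 1 was lower (Anln), beside 2.58% of tested rows, and 1 higher (H2afx, named H2ax in the table), beside 3.5%. Among 57 other mitotic genes 52 lay below 0, with a median of -0.22. Anln, the cytokinesis scaffold anillin, had 10.6 and 7.42 FPKM (-0.52, p = 0.0441, q = 0.779), Cks1b, a CDK subunit, 115.4 and 99.01 (-0.22), and the checkpoint gene Bub3 38.3 and 37.8 (-0.02) by the authors' deposited table. Among 45 other genes of replication forks and origins 31 lay below 0, with a median of -0.14. Cdt1, which loads the helicase with CDC6, had 59.1 and 62.0 FPKM (0.07) and the clamp loader gene Rfc2 41.9 and 42.1 (0.00) by the authors' deposited table.

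Genes listed with the G1 cyclins lay nearer 0, and most genes of the inhibitor and p53 pathway list lay above it. The first list holds 22 genes, namely G1 cyclins, kinases, pocket proteins, E2F factors, their partners and Lin genes, which do not all act in G1. Its median was -0.04, with 13 below 0. Cdk4 had 165 and 140 FPKM (-0.23) and Ccnd1, its cyclin, 89.7 and 93.0 (0.05) by the authors' deposited table. Of 17 genes listed as cell cycle inhibitors or p53 pathway genes 13 lay above 0, beside 46.2% of tested rows, with a median of 0.19, or 0.09 after scaling to the same FPKM sum. The list holds Mdm2, an antagonist of p53 and no inhibitor of the cycle, and without it 12 of 16 lay above 0 with a median of 0.20, an alternative chosen after seeing the data. The abundant CDK inhibitor genes Cdkn1a (p21) and Cdkn2a had 256 and 258 FPKM (0.01) and 220 and 215 FPKM (-0.03) by the authors' deposited table. The other CDK inhibitor genes of the list lay on both sides of 0. Cdkn1b was at 0.47, Cdkn2b at 0.18, Cdkn2c at 0.14, Cdkn1c at -0.02 and Cdkn2d at -0.12. The list median thus also rests on genes that are not CDK inhibitors. Over 15 chromatin and tubulin genes linked to proliferation the median was -0.06. Tubb5 had 320 and 291 FPKM (-0.14), Tuba1b 173 and 130 (-0.41, p = 0.0848) and H2afx, the histone variant of DNA damage signalling, 24.4 and 39.0 (0.68, p = 0.0101, q = 0.327) by the authors' deposited table.

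**Figure D4:**
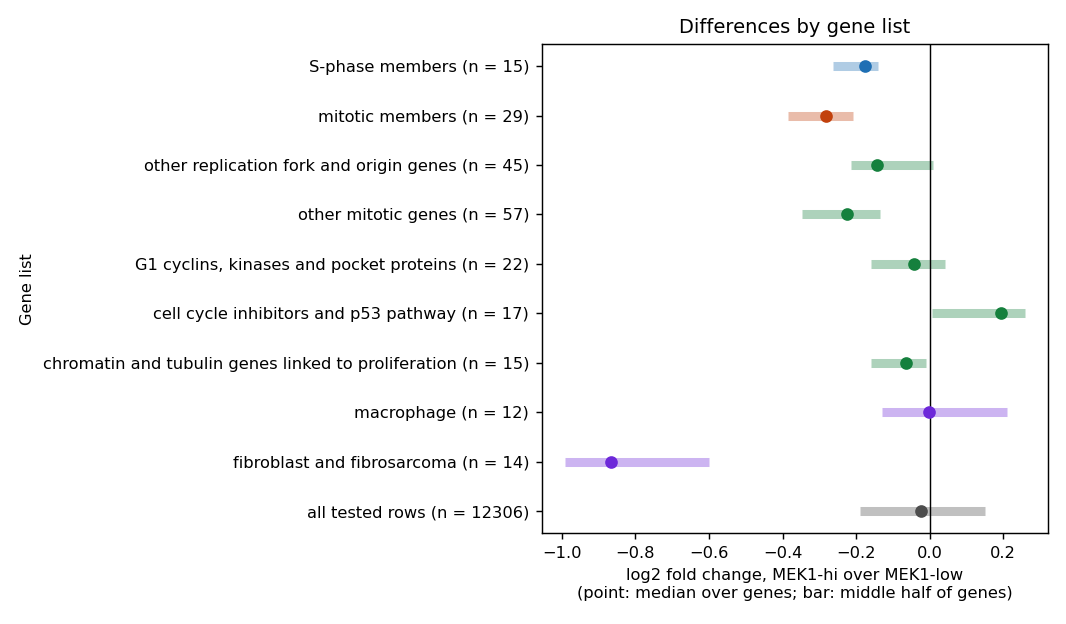
Median log2 fold change of each gene list (point) with a bar from its lower to its upper quartile; n is the number of tested genes. Mitotic lists lie furthest below 0 among the cell cycle lists, the inhibitor and p53 pathway list above 0 (median 0.19), and the fibroblast and fibrosarcoma markers (median -0.87) below all of them.

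Markers of other cell types were read in the same table. The cells carried macrophage markers at high levels, 17765 FPKM summed over 12 genes in MEK1-low and 20306 in MEK1-hi, led by Lyz2 (4999 and 6372 FPKM by the authors' deposited table), with 6 of 12 below 0, 0 called by Cuffdiff and 1 lower at an unadjusted p of 0.05. Fibroblast and fibrosarcoma markers were present as well, and lower. All 14 lay below 0 (median -0.87), 4 were called lower by Cuffdiff (Acta2, Col5a1, Col6a3 and Thy1, named after their values were seen), beside 0.325% of tested rows, and 9 were lower at an unadjusted p of 0.05. Their sum went from 2134 to 1385 FPKM, with 0 of 14 at 0. Postn had 471 and 371 FPKM and Col3a1 454 and 290 by the authors' deposited table. Tumor cells and fibroblasts can divide too, and the part of these cells in the lower cell cycle values was not tested. Fewer dividing cells and less of these transcripts per cell cannot be told apart in such samples. T and NK cell markers were scarce, 38.4 FPKM summed over 9 tested genes in MEK1-low and 43.8 in MEK1-hi, of which Cd4, which macrophages can also make, gave 27.8 and 19.3 by the authors' deposited table. All of the other 8 tested lay above 0. Cuffdiff called 0 of the 9, with 4 higher and 1 lower at an unadjusted p of 0.05, and their part in the cell cycle values was not tested. Of 8 dendritic cell markers 2 were called higher (Clec9a and Xcr1, named after their values were seen), beside 0.999% of tested rows, and 7 lay above 0, with sums of 53.6 and 71.2 FPKM. At an unadjusted p of 0.05, 3 were higher and 1 was lower, Cd209a, with 9.68 and 4.64 FPKM (-1.06, p = 0.0075 by the authors' deposited table). Neutrophil (29.4 and 26.3), erythroid (23.6 and 16.8) and B cell (8.05 and 8.91) markers had low summed FPKM over the tested genes. Cuffdiff called 0 of these, with 1 neutrophil gene lower at an unadjusted p of 0.05. Beside all the marker counts at that unadjusted p stand 2.58% of tested rows lower and 3.5% higher.

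Read assignment limits some members. Loci of 9 members overlap another row of the table, such as Kif20a (with Brd8 and Cdc23), Ccna2 (Exosc9), Cdc20 (Elovl1), Ccne2 (Ints8), Nusap1 (Oip5) and Tk1 (Afmid), and the libraries were stranded, but whether the counting used strand was not stated in the labels. GENCODE names pseudogenes of Ccnb1, Ccnb2, Pcna and Tyms, whose reads may be shared with them. Without the 9 overlapping genes 34 of 35 members lay below 0, and the medians were -0.28 for mitotic and -0.20 for S-phase members, an alternative chosen after seeing the data. On mm10 the authors place Mki67 at chr7:135689788-135716379, Cdk1 at chr10:69335146-69352912, Mcm2 at chr6:88883474-88898780 and Pcna at chr2:132249286-132253180.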

How the data were processed

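RNA was sequenced from tumor macrophages in 5 libraries (3 MEK1-hi, 2 MEK1-low). As the labels' protocols state, a stranded mRNA kit was used on 750 ng of RNA, followed by sequencing with paired reads of 100 bases at a planned depth of 25000000 per sample. The tools FastQC 0.73, TopHat, Cufflinks and Cuffdiff and the build mm10 come from the submitters' processing notes, and the annotation was not stated there. The authors' deposited data are 1 Cuffdiff table with 1 pooled FPKM per group, so depth per library is unknown and no interval is given. Its test statistic, a score, was used as the authors deposited it. Each p-value and q-value is likewise the authors' own, and the q-values equal Benjamini-Hochberg adjustment over the 12311 tested rows.

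Log2 fold changes were computed from the FPKM values with no pseudocount, since the deposited fold change column held error text. FPKM is no count, so no count model was run, and lists were described by counts and medians beside all tested rows. Members and lists were chosen with earlier results of these data known. All 44 members are named. From other cell cycle lists the 2 most abundant genes and up to 6 with the smallest p under 0.05 are named, and from marker lists up to 4 of the most abundant. The remaining CDK inhibitor genes are named too, an addition made after seeing the data. Of 266 listed symbols 264 were found, 4 through RefSeq synonyms. Summaries were run on simulated data with a planted difference between the sets larger than the one found. This checks the calculation and not the difference itself. Alternatives changed thresholds, filters, pseudocounts (0.1 and 1), scaling, membership and joined rows. Scripts ran under Python 3.11.15 (numpy 2.4.6, pandas 2.3.3, matplotlib 3.10.9), and GENCODE M21 gave gene positions.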

Additional observations from a re-analysis of the deposited data

How the results depend on the processing

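No member or other cell cycle gene was called at a q of 0.1, after a filter at 1 FPKM, after readjustment over the filtered rows, or without rows of several symbols. At an unadjusted p of 0.05, 1 member and 2 of the other cell cycle genes were called, beside 2.58% of tested rows lower and 3.5% higher. The S-phase median ranged from -0.27 (equal FPKM sums) to -0.15 (centred on the median of tested rows), and the mitotic median from -0.38 to -0.26. The difference between them ranged from -0.10 to -0.055, the latter without genes that span phases. Equal sums shift every row alike, and leaving genes out changes which genes set the medians. Summed FPKM ratios ranged from 0.827 to 0.886 for S-phase and from 0.786 to 0.844 for mitotic members. Leaving out each library could not be run, since the table holds no values per library. No paired analysis was possible because the columns are pooled per group and carry no replicate numbers. Depth per library is unknown, so detection limits are not given.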
